A study of Mus musculus with 6 samples.

Results

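The genes described here are the 9 core components of Hedgehog signalling: the ligands Shh, Ihh and Dhh, the receptor Ptch1, the ligand-binding decoy Hhip, the signal transducer Smo and the transcription factors Gli1, Gli2 and Gli3. They were chosen by their gene symbol in the platform annotation. All 9 were present, each with 1 probe, among 23473 probes, of which 16631 carried a symbol, for 16446 genes in all. RNA was profiled on single-colour arrays of hepatic stellate cells from 3 Sept4 knockout samples (genotype SEPT4-KO) and 3 wild-type samples. Mice of both genotypes had been given carbon tetrachloride (CCl4), a hepatotoxin, and had cirrhosis, so no uninjured liver is part of the comparison. Strain, sex, age, the knockout allele and the way the cells were isolated were not stated in the labels, nor was it stated whether the arrays of a genotype came from separate mice. The p-values below therefore reflect only how far these 6 arrays vary, a variation that may be technical.

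In Hedgehog signalling the secreted ligands bind Patched, which otherwise keeps Smoothened inactive. Once Smoothened is released it acts at the primary cilium, where full-length Gli factors are freed from their inhibitor Sufu and from proteolytic processing, and they then switch on genes that include Gli1, Ptch1 and Hhip themselves. The level of those 3 transcripts is commonly read as the output of the pathway. In injured liver, ligands are known to come from ballooned hepatocytes, cholangiocytes and stellate cells, and the pathway is known to promote the change of stellate cells into myofibroblasts.

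Values are normalised log2 signals, and each difference is knockout minus wild type. A gene was called when its adjusted p in limma, over all probes, was under 0.05. Of the 9 genes, 1 was called, Smo, which was lower in knockout cells; 42.7% of all probes were called, 26.7% as higher and 16.0% as lower. The differences were positive for 6 genes and negative for 3. Their median was 0.29, against 0.12 over all probes, although the medians of the 6 arrays were equal. The groups did not overlap for 2 of the 9 genes, Smo and Hhip, where 56.2% of all probes had groups that did not overlap. These 2 genes were also the ones at an unadjusted p under 0.05, as were 50.5% of all probes. The share called was lower among dim probes. The mean signal was under 4 for 6 genes, and a call was made for 12.7% of all probes with a mean signal under 2 and for 19.1% of those from 2 to 4. The other 3 genes, Smo, Gli1 and Hhip, had mean signals between 5 and 8, a range in which 59.0% of probes were called. Each array also has a lowest value shared by 940 to 1255 probes, and 9 of the 54 values of the Hedgehog genes lay at it, in Shh, Dhh and Ptch1. A level there is only a bound.

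**Figure D1:**
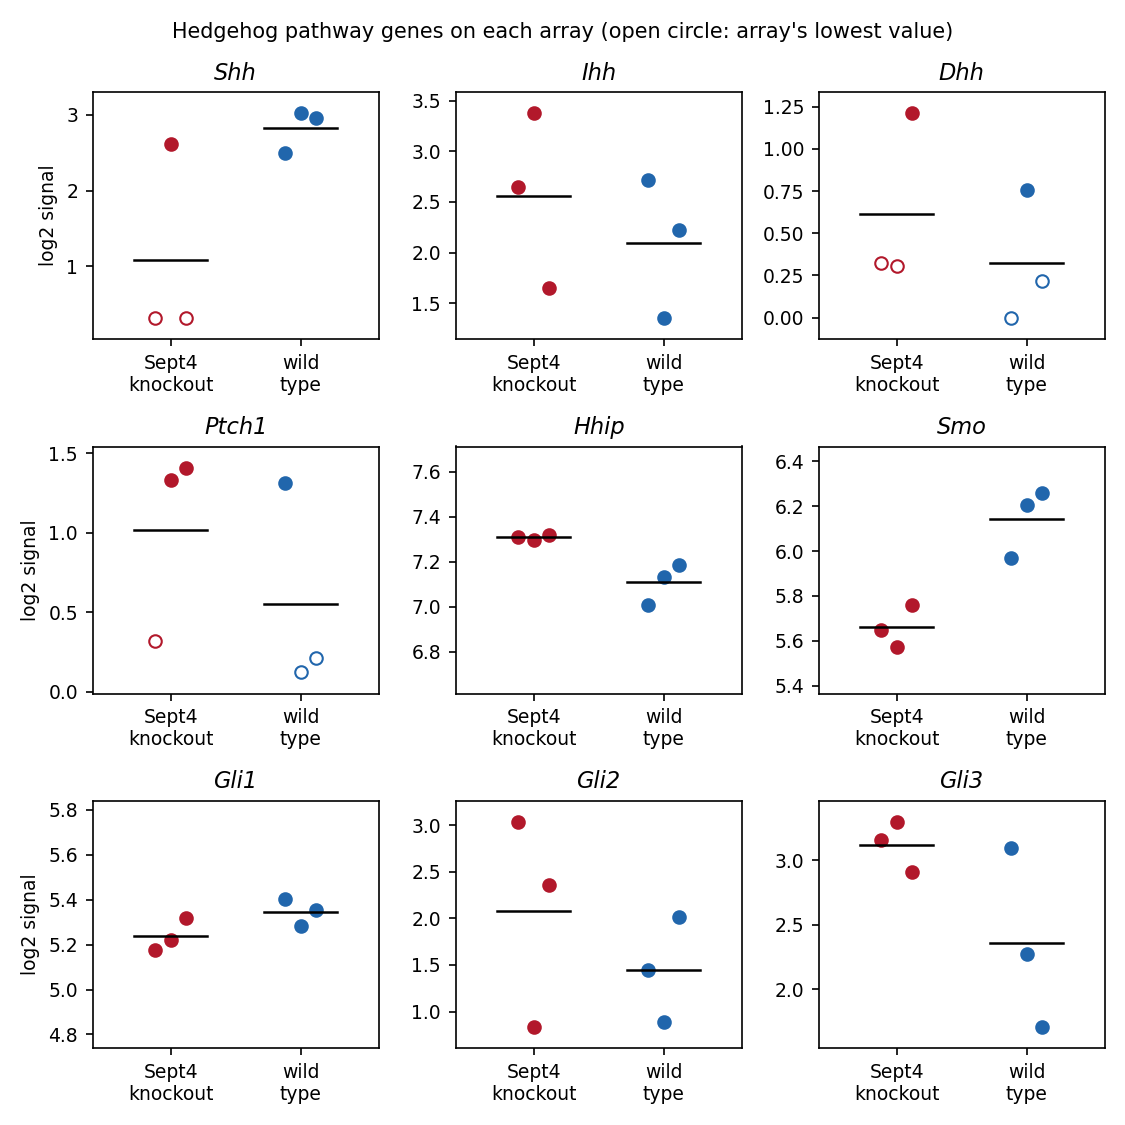
Normalised log2 signal (vertical axis, own scale in each panel) of the 9 Hedgehog genes on 3 Sept4 knockout arrays (red, left) and 3 wild-type arrays (blue, right). Each circle is 1 array, an open circle lies at the lowest value of its array, and the line is the group mean. The groups are separate for Smo and Hhip and overlap for the other 7 genes.

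Smo encodes Smoothened, the seven-pass membrane protein that every canonical Hedgehog signal passes through. Its log2 signal was 5.65, 5.57 and 5.76 on the knockout arrays, against 5.97, 6.21 and 6.26 on the wild-type arrays. All 3 knockout arrays were below the lowest wild-type array. The means were 5.66 ± 0.09 in knockout and 6.14 ± 0.15 in wild-type cells (SD, n = 3 each), and Smo fell by 0.48 ± 0.10 (SE) on the log2 scale, or 1.40-fold (limma, adjusted p = 0.0147). The 95% confidence interval ran from -0.74 to -0.23. The call was lost without knockout replicate 2, at an adjusted p of 0.0504, and without wild-type replicate 2, at 0.0549, with differences of -0.44 and -0.45. Over the 6 arrays, the probes whose pattern was most like that of Smo were Tex2 (r = 0.993), Gja7 (r = 0.992) and Hspa2 (r = 0.990). These are ranked from 14637 named probes that lay at no array's lowest value, of which 1274 had an r over 0.9, and all share the same 6 arrays and 2 groups.

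Hhip, the Hedgehog-interacting protein, sits on the cell surface or is shed, and binds all 3 ligands so that they cannot reach Patched. Its probe was the most even of the 9 in the knockout, with log2 signals of 7.31, 7.30 and 7.32, against 7.01, 7.13 and 7.18 in wild-type cells. The knockout arrays were all above the wild-type arrays, but by little. The difference was 0.20 ± 0.06 (SE), or 1.15-fold (limma, adjusted p = 0.0514), with a 95% confidence interval from 0.04 to 0.36. The difference was smaller on 2 other scales. Quantile normalisation of the deposited values brought it to 0.11 (adjusted p = 0.199), and cyclic loess also to 0.11 (adjusted p = 0.218). On the deposited values the call depended on the setting. The adjusted p was under 0.05 with array weights, the linear offset, the trended and robust prior and 3 filters on probes, but it was 0.116 in the fit blocked by replicate. When single arrays were left out it ran from 0.0492 to 0.117, with 1 of 6 under 0.05.

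Gli1 is the Gli factor whose transcription depends most directly on the pathway, and its probe was among the more precise here. The knockout arrays read 5.17, 5.22 and 5.32, and the wild-type arrays 5.40, 5.28 and 5.35. The groups overlapped, since knockout replicate 3 exceeded wild-type replicate 2. The difference was -0.11 ± 0.06 (SE; limma, adjusted p = 0.237). Its 95% confidence interval, from -0.27 to 0.06, leaves room for a fall of up to 1.21-fold or a rise of up to 1.04-fold. Of the 9 genes only Gli1 and Hhip had an interval narrower than 0.4 on the log2 scale.

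Ptch1, the receptor that is also a target of the pathway, was too dim to serve as a readout. The brighter readouts, Gli1 and Hhip, differed by -0.11 and 0.20, in opposite directions. Neither was called in the main limma fit, and the call of Hhip depended on the setting. Ptch1 read 0.32, 1.33 and 1.41 in knockout cells, against 1.31, 0.12 and 0.22 in wild-type cells. Knockout replicate 1 and wild-type replicates 2 and 3 lay at the lowest value of their arrays, so 3 of its 6 levels are bounds. The difference was 0.47 ± 0.46 (SE; limma, adjusted p = 0.461), and 0.26 to 0.85 when each array was left out. With bounds in both genotypes the fit sets no limit on the size of a change, and no difference in Ptch1 was detectable at this signal.

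**Figure D2:**
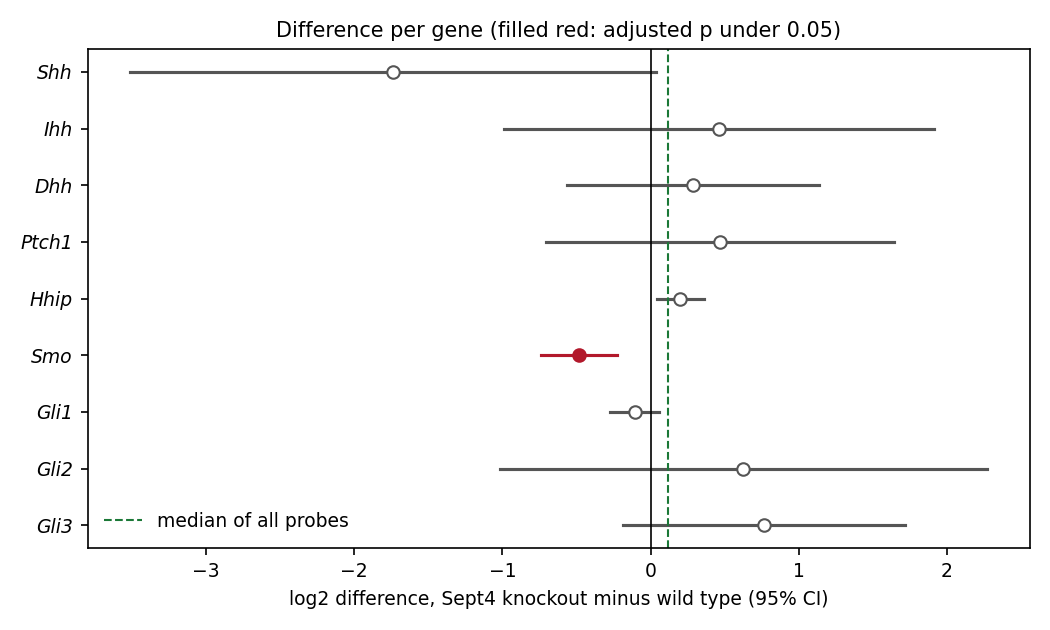
Log2 difference (horizontal axis, Sept4 knockout minus wild type) of the 9 Hedgehog genes, with 95% confidence intervals from limma over 3 arrays of each genotype. The filled red point, Smo at -0.48, is the only one with an adjusted p under 0.05, and the dashed line is the median of all probes at 0.12.

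The ligand genes were all dim, with none called. Sonic hedgehog (Shh) had the widest gap of the 9 genes. It read 0.32, 2.62 and 0.32 in knockout cells, against 2.50, 3.02 and 2.96 in wild-type cells. Knockout replicates 1 and 3 lay at the lowest value of their arrays, whereas knockout replicate 2 lay within the wild-type range. The difference was -1.74 ± 0.69 (SE; limma, adjusted p = 0.104), with an interval from -3.51 to 0.03. Without knockout replicate 2, both knockout values left lie at the lowest value, so the fitted -2.50 (adjusted p = 0.00546) rests on bounds and on a spread that is not a measured one. With all arrays, a trended and robust variance prior gave an adjusted p of 0.00922, and the linear offset reduced the difference to -0.98.

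Indian hedgehog (Ihh) read 2.65, 3.37 and 1.64 in knockout cells and 2.72, 1.36 and 2.22 in wild-type cells. Its groups lay across each other, with a difference of 0.46 ± 0.57 (SE; limma, adjusted p = 0.559). It was 0.05 without knockout replicate 2, 0.09 without wild-type replicate 2, 0.77 without wild-type replicate 1 and 0.91 without knockout replicate 3. Desert hedgehog (Dhh), best known from Schwann and Sertoli cells, read 0.32, 0.31 and 1.21 in knockout cells and 0.00, 0.76 and 0.22 in wild-type cells. Knockout replicates 1 and 2 and wild-type replicates 1 and 3 were at the lowest value, which leaves 1 measured level in each genotype. The fitted difference was 0.29 ± 0.33 (SE; limma, adjusted p = 0.532), and its sign turned after cyclic loess, at -0.027, and without knockout replicate 3, at -0.010.

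Gli2, the main activator among the Gli factors, and Gli3, which acts mostly as a repressor in its processed form, also had low signals. Gli2 read 3.03, 0.84 and 2.36 in knockout cells and 1.45, 0.89 and 2.01 in wild-type cells. The lowest of the 6 values was a knockout array, and the difference was 0.63 ± 0.64 (SE; limma, adjusted p = 0.481). It was 0.15 without knockout replicate 1, 0.35 without wild-type replicate 2 and 1.25 without knockout replicate 2 (adjusted p = 0.0864). Gli3 read 3.16, 3.29 and 2.91 in knockout cells, against 3.09, 2.27 and 1.71 in wild-type cells. The knockout arrays lay close together, while the wild-type arrays were spread over 1.39, with wild-type replicate 1 inside the knockout range. It differed by 0.76 ± 0.37 (SE; limma, adjusted p = 0.163). Without wild-type replicate 1 it differed by 1.13 (adjusted p = 0.0252).

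Beyond these 9 genes, 124 genes that act elsewhere in the pathway were listed by role, and 113 were measured. Of these, 33 were higher in knockout cells and 23 lower, or 49.6% called. Over all genes, taken by their brightest probe, 44.3% were called, 29.4% as higher and 14.9% as lower. The median difference of the pathway genes was 0.13, against 0.14 over all genes. The pathway genes were also brighter, with a median signal of 6.45 against 5.38 over all genes. Brighter probes were called more often, at 59.0% of all probes with a mean signal from 5 to 8. After quantile normalisation, which removes most of the shift between the genotypes, 26 were higher and 26 lower, and 49 of the 56 calls remained with the same sign.

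Of 9 measured genes that release and spread the ligands, 1 was higher and 1 lower, or 22.2% called. Their median signal was 3.18, and 19.1% of all probes with a mean signal from 2 to 4 were called. Disp2, a relative of the Dispatched protein that releases lipid-modified ligand, had a log2 signal of 9.50 ± 0.08 in knockout cells and 8.83 ± 0.02 in wild-type cells (SD, n = 3 each), and rose by 0.67. Ext1, which elongates the heparan sulfate chains that carry Hedgehog ligands between cells, fell by 0.51. Among the co-receptors, which hold ligand for Patched, 0 of 4 measured genes were called at an adjusted p under 0.05 in limma, and 0 at an unadjusted p under 0.05. Over all genes 44.3% were called. Gas1 was bright and even, at 9.10 ± 0.04 in knockout and 9.11 ± 0.02 in wild-type cells, with a difference of 0.00 and an interval from -0.13 to 0.12. After the 2 other scalings Gas1 differed by -0.14 and -0.15. Boc differed by 0.13 with an adjusted p of 0.519. Lrp2, a large endocytic receptor, differed by -0.53 with an adjusted p of 0.109.

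**Figure D3:**
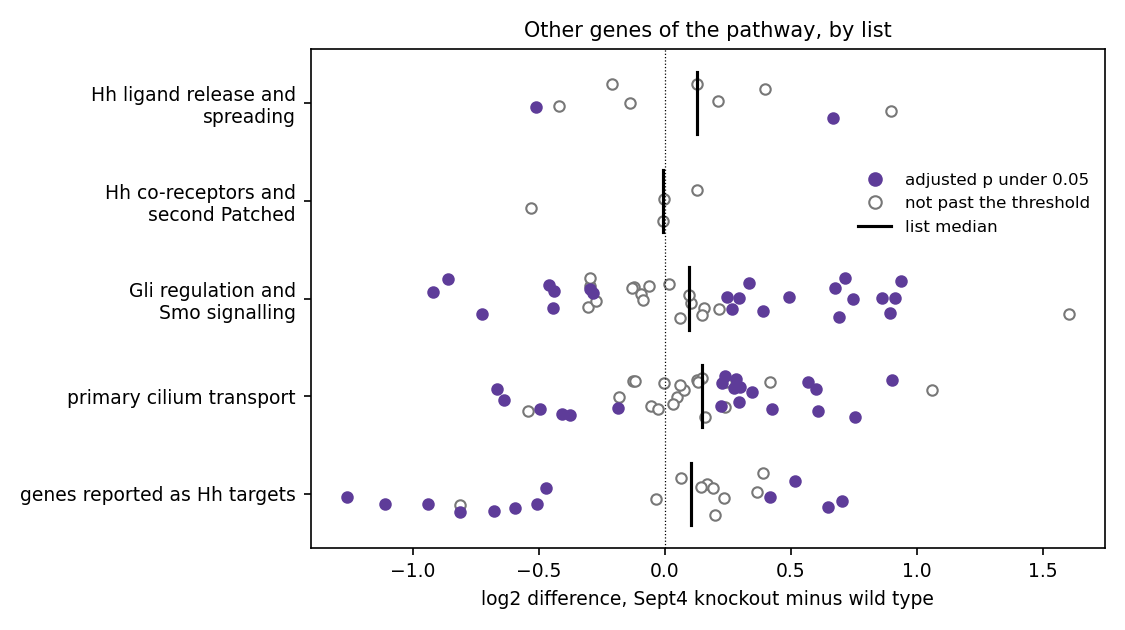
Log2 difference (horizontal axis, Sept4 knockout minus wild type) of 113 measured genes of the Hedgehog (Hh) pathway other than the 9 core genes, in 5 lists by role (rows, with vertical scatter only for legibility). Filled points had an adjusted p under 0.05, open points did not, and vertical bars are list medians, from -0.01 for the co-receptors to 0.15 for cilium transport.

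The regulators between Smo and the Gli factors moved in both directions. Of 39 measured, 14 were higher and 8 lower (56.4% called), with a median difference of 0.10. Over all genes 44.3% were called. The median signal of these regulators was 6.29, and 59.0% of all probes with a mean signal from 5 to 8 were called. Protein kinase A phosphorylates Gli factors for processing. Its catalytic subunit gene Prkaca was at 7.72 ± 0.06 in knockout and 6.82 ± 0.14 in wild-type cells (SD, n = 3 each), a rise of 0.90, and its regulatory subunit gene Prkar1a rose by 0.86. Fkbp8, an antagonist of the pathway in mouse neural tissue, rose by 0.92. Arrb1, a beta-arrestin that helps bring Smo to the cilium, rose by 0.94. Among the falls, the kinase gene Dyrk2, whose product phosphorylates Gli2 for degradation, fell by 0.92 and the casein kinase gene Csnk1e by 0.86. Other casein kinase genes, named after their values had been seen, went both ways. Csnk1a1, Csnk1d and Csnk1g2 rose by 0.75, 0.72 and 0.49, and Csnk1g1 and Csnk1g3 fell by 0.30 and 0.44. The ubiquitin ligase genes Smurf1 and Smurf2, whose products send Patched for degradation, fell by 0.73 and 0.46. Sufu, the main inhibitor of the Gli factors, was not called; its difference was -0.30 (adjusted p = 0.112), and the gene was picked out after its value had been seen.

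Vertebrate Hedgehog signalling depends on transport along the primary cilium. Of 39 measured cilium genes, 14 were higher and 6 lower, or 35.9% and 15.4%, with a median of 0.15. The shares over all genes were 29.4% and 14.9%, with a median of 0.14. The cilium list had a median signal of 7.24 and 51.3% called, against 59.0% of all probes with a mean signal from 5 to 8. The largest called rises were in Bbs9 (0.90), Bbs2 (0.75) and Ttc8 (0.60), which encode subunits of the BBSome, the coat complex that carries membrane proteins out of the cilium, and in Cep290 (0.61), a gatekeeper at the base of the cilium. Another BBSome gene, Bbs4, fell by 0.67, so the subunits did not share a direction. Inpp5e, the phosphatase that sets the lipid composition of the ciliary membrane, fell by 0.64. Ift46 and Ift52, of the particle that carries cargo to the tip, fell by 0.50 and 0.41. Other genes of that particle, named after their values had been seen, did not share this direction. Ift20 and Ift172 rose by 0.42 and 0.30, Traf3ip1 fell by 0.19, and Ift27, Ift57, Ift74, Ift80, Ift81 and Ift88 were not called. After quantile normalisation 10 cilium genes were higher and 8 lower.

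Genes reported elsewhere as transcriptional targets of the pathway, in various tissues, also split. Of 22 measured, 4 were higher and 8 lower, or 18.2% and 36.4%, and the median was 0.10. Over all genes 29.4% were higher and 14.9% lower, with a median of 0.14. The list had a median signal of 6.05 and 54.5% called, against 59.0% of all probes with a mean signal from 5 to 8. The 4 higher genes were Cdk6 (0.70), a cell cycle kinase, Rab34 (0.65), a GTPase needed for cilium formation, Bmp2 (0.51), a secreted morphogen, and Foxf1a (0.42), a mesenchymal transcription factor. The largest falls were in Spp1, which encodes osteopontin and has been described as Hedgehog-responsive in liver, by 1.26, in the chemokine gene Cxcl14 by 1.11, in tenascin C (Tnc) by 0.94 and in the growth factor gene Igf2 by 0.81. These genes answer to other pathways as well. The list had the same counts, 4 higher and 8 lower, after quantile normalisation and after cyclic loess.

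**Figure D4:**
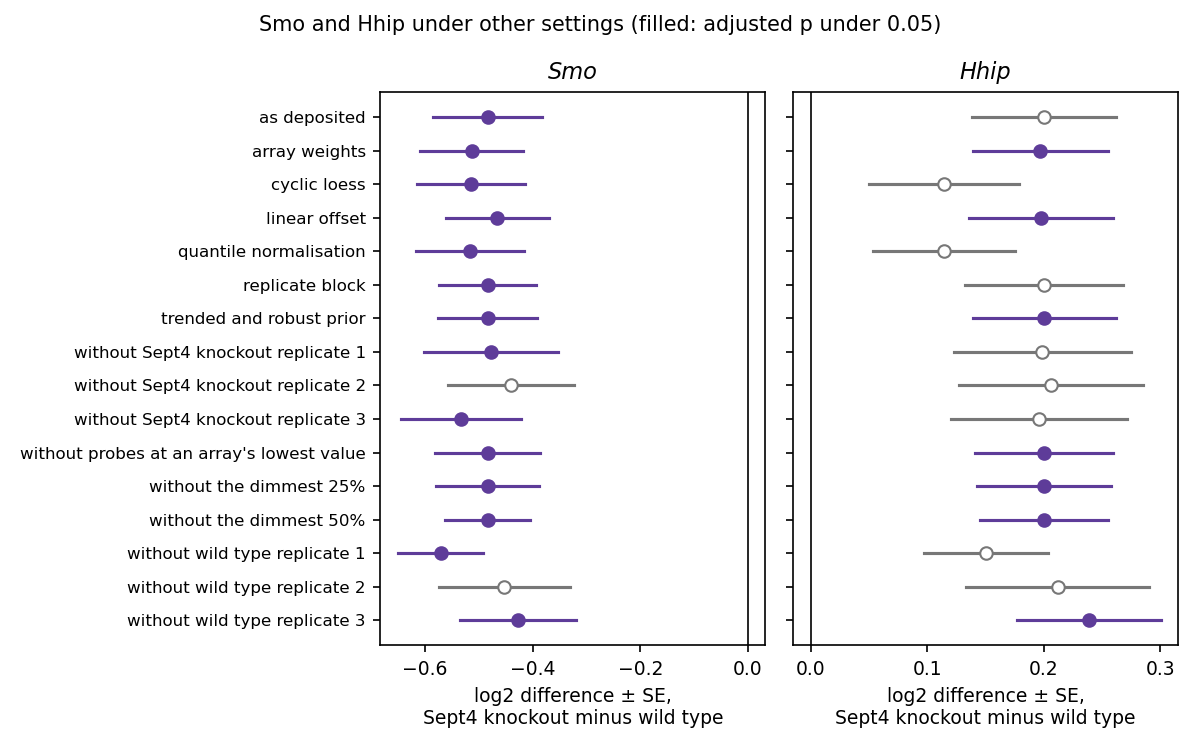
Log2 difference ± SE (horizontal axes, Sept4 knockout minus wild type) of Smo and Hhip on the deposited values and under 15 other settings (rows). Filled points had an adjusted p under 0.05. Smo was negative throughout and open in 2 settings, and Hhip was positive throughout, smallest after quantile normalisation and cyclic loess.

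The cell type was checked with marker lists, each given by its calls, its median difference and its summed linear signal. For comparison, 44.3% of all genes were called, 29.4% as higher and 14.9% as lower, with a median of 0.14. The brightest of 11 measured myofibroblast markers were Acta2, Col3a1 and Tagln. In that list 9 were lower in knockout cells and 2 higher, with a median difference of -0.98. Tagln fell by 2.45 and Acta2 by 0.56, whereas Col3a1 rose by 2.09, so the sum, 53762 to 55280 on knockout arrays and 61091 to 67878 on wild-type arrays, adds up opposite moves. Of 12 measured genes listed for quiescent stellate cells, the brightest of them Hgf, Pdgfrb and Cygb, 8 were higher and 1 lower. Their median was 0.88, with sums of 4997 to 5055 on knockout and 2538 to 2690 on wild-type arrays. Pdgfrb, which rose by 0.30 and is counted among the higher genes, is not specific to the quiescent state.

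Signal of other liver cells was also measured. The shares called were 46.7% for macrophage, 46.2% for endothelial, 42.9% for cholangiocyte and 38.5% for hepatocyte markers. They were 38.5% for portal fibroblast and mesothelium and 27.3% for lymphocyte markers, against 44.3% of all genes. Of 15 macrophage markers 2 were higher and 5 lower, with a median of 0.00. Their sum was 5917 to 6176 on knockout and 5543 to 5817 on wild-type arrays. The brightest were Cd5l, which rose by 0.49, Marco, which was not called, and C1qb, which fell by 0.63. The mean log2 signal of the macrophage markers was lower in the knockout, at 6.68 to 6.81 against at least 6.94 on the wild-type arrays. Of 13 hepatocyte markers, the brightest of them Trf, Ttr and Ahsg, 4 were higher and 1 lower, with a median of 0.14. Their sums were 2495 to 2534 on knockout and 2053 to 2145 on wild-type arrays. That gap lies mostly in Trf, which rose by 0.36, while Ttr fell by 0.42. Alb, Ahsg and Cps1 also rose, by 0.88, 0.49 and 0.35. Alb and Cps1 were named after their values had been seen. For 7 cholangiocyte markers, the brightest of them Spp1, Cldn4 and Onecut1, the sums were 673 to 708 and 1299 to 1399. That gap lies mostly in Spp1, which is also in the target list, and the list median was 0.06 with 1 marker higher and 2 lower. For 13 endothelial markers, the brightest of them Stab1, Eng and Kdr, 5 were higher and 1 lower, with a median of 0.04. Their sums were 713 to 729 and 544 to 584. For 13 markers of portal fibroblasts and mesothelium, the brightest of them Eln, Thy1 and Cd34, the sums were 332 to 361 and 449 to 467. That gap lies mostly in Thy1, which fell by 2.24, and the list median was -0.07 with 2 higher and 3 lower. Of 11 lymphocyte markers, 9 had a mean signal under 4, and the sums were 112 to 139 and 111 to 113, led by Cd3d, Cd4 and Cd79b. In that list 1 was higher and 2 lower, with a median of 0.46. The part of cell composition in the difference in Smo was not tested. In such bulk RNA, fewer cells of a type and less RNA per cell cannot be told apart.

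Promoter windows from RefSeq (assembly GRCm38.p6, from 250 bases before to 50 after a listed start) were available for 7 of the 9 genes. For 2 of them, both on the minus strand, the outermost end of the gene was not covered. The Ptch1 window ended at 63565985 and the gene at 63573460. The Gli2 window ended at 119053869 and the gene at 119054405. Those of Shh and Gli1 were not searched. The Gli consensus GACCACCCA, looked for on both strands, was in 0 of these 7 windows, and 0 held it with 1 mismatch allowed. Of all 32851 windows, 0.253% held the consensus and 6.74% held it with up to 1 mismatch. The absence says only that these letters are not in windows of this length. On the same assembly Smo lies on chromosome 6 from 29735497 to 29761366 and Hhip on chromosome 8 from 79965850 to 80058060.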

How the data were processed

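Per the labels, total RNA was extracted with phenol and chloroform, labelled with Cy5 and hybridised to single-colour arrays, and the values were quantile normalised by the authors. The deposited table holds log2 signals; the base of the logarithm, not stated, was read as 2 from their range. Array medians were equal, but the highest values were 16.6 to 16.8 in knockout and 15.7 to 15.8 in wild-type arrays, so processing that differed between genotypes cannot be told apart from genotype. Contrary to the stated design, the protocol for labelling speaks of microRNA and tumour samples. Background correction is not given in the sources used here. Across probes, r was 0.981 to 0.982 within knockout arrays, 0.986 within wild-type arrays and 0.967 to 0.971 between them. The number of arrays limits the precision. No probe is named Sept4, so the genotype was not checked by the deleted gene. A probe without a symbol or under another name might still measure it.

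Differences were fitted in limma 3.58.1 (lmFit, eBayes; R 4.3.3), two-sided, with Benjamini-Hochberg adjustment over 23473 probes, and the fit was tested on simulated data. Lists used each gene's brightest probe, with older symbols matched through RefSeq. The members, lists and rules were chosen with earlier results of these data known. Within each list the genes named were up to 4 called in each direction by size, or otherwise the 3 with the smallest p, and other names are marked as chosen after their values were seen. For marker lists the 3 brightest were named, and for likeness the 3 probes with the highest Pearson r. Alternatives were quantile normalisation, cyclic loess, filters on dim probes, an offset on the linear scale (10th percentile), other variance priors, array weights, a replicate block and leaving out each array. Figures used matplotlib 3.10.9.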

Additional observations from a re-analysis of the deposited data

How the results depend on the processing

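Smo kept its sign under all 15 alternatives, with an adjusted p under 0.05 in limma in all 9 that used every array. Leaving out each array gave -0.57 to -0.43 for Smo, -2.50 to -1.35 for Shh, 0.15 to 0.24 for Hhip, 0.44 to 1.13 for Gli3, 0.15 to 1.25 for Gli2, 0.05 to 0.91 for Ihh, 0.26 to 0.85 for Ptch1, -0.15 to -0.08 for Gli1 and -0.010 to 0.50 for Dhh. With the linear offset Shh differed by -0.98 and Ptch1 by 0.20, and with array weights Ihh differed by 0.84. Hhip was called with array weights (0.20, adjusted p 0.0431), the linear offset (0.20, 0.0486), a trended and robust prior (0.20, 0.00495), without probes at the lowest value of any array (0.20, 0.0377) and without the dimmest 25% (0.20, 0.0276) or 50% (0.20, 0.00695). Shh was called with the trended and robust prior (-1.74, 0.00922), and Dhh turned to -0.027 after cyclic loess. The number of Hedgehog genes called was thus 2 under 5 of these settings (array weights, the linear offset and the 3 filters), 3 with the trended and robust prior, and 0 to 2 when an array was left out. The filters tested only 4, 3 and 6 of the 9 genes (dimmest 25%, dimmest 50%, lowest value). Over all probes 62.6% of the calls were higher on the deposited scale, 52.5% with quantile normalisation and 51.5% with cyclic loess. With the replicate block in limma Smo had an adjusted p of 0.0397 and Hhip 0.116, and 1 Hedgehog gene was called. Deviations from the group means had an r from -0.002 to 0.008 between same-numbered arrays. Between differently numbered arrays it ran from -0.009 to 0.011. So small an r cannot show that the samples were unpaired. Over the alternatives, 7724 to 11792 of all probes and 40 to 66 of the other pathway genes were called. The low signal of 6 of the 9 genes limits what can be detected in them.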
